A study of Mus musculus with 6 samples.

Results

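The interferon-stimulated genes described here are 33 mouse genes that respond to type I interferon, chosen by name as a module, of which 31 could be measured among 39470 loci in pancreatic islets of mice on 2 diets. Interferons bind receptors on the cell surface, and the kinases attached to these receptors activate transcription factors, among them STAT2. Together with IRF9 this factor binds a short DNA element, the interferon-stimulated response element (ISRE), and switches on genes that block viral RNA, sense it, or present antigen. In islets this gene set is known above all for its induction by viral infection and in autoimmune diabetes, and the diet comparison asks whether its levels differ in diet-induced obesity.

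The islets came from C57BL/6 mice on a high fat diet (3 libraries), against islets from C57BL/6 mice on a normal diet (3 libraries); the mice were 14 weeks old and had been on their diet for 8 weeks. The labels give no sex, and nothing in them says whether a library came from 1 mouse or a pool or that the 3 libraries of a diet came from separate mice, so p-values here cover library-to-library spread alone, and that may be technical. The deposited columns name the other diet as HDR, which was read as high fat diet, and every direction below rests on that reading. The libraries, from total RNA depleted of ribosomal RNA, held between 104657337 and 135353777 reads counted in loci. Iapp, the beta cell peptide amylin, averaged 47280 CPM and Gcg, the glucagon gene of alpha cells, 21013 CPM over the 6 libraries, so the islet hormones were abundant; CPM are the counts of a library scaled by its TMM-adjusted total. On the second principal component of all loci, high fat library 3 lay at −59.4, away from high fat libraries 1 and 2 at 32.3 and 25.5, so member values are given with each library shown.

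Each gene was linked to a locus of the deposited assembly by its exon and intron lengths on the same chromosome and strand. Ifi35 and Trim25 were set aside because 90.02% and 100% of their exonic bases lay under another locus. The limit was 90%, and the members nearest to it that were kept were Oas2 and Herc6, at 14.3% and 10.1%. Ifi35 read 1.75, 1.78 and 1.43 CPM in high fat islets, against 2.00, 1.85 and 2.04 CPM in normal diet islets, and Trim25 was listed at 0 reads in all 6 libraries. All 31 measured members passed the filter on low counts. The locus of Ifit3 also holds its near copy Ifit3b, that of Oas1a holds Oas1g and that of Herc6 holds Gm45193, so the values of these 3 loci cannot be split between the genes in them.

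The sequences below are promoter windows of members, searched for an element that part of the module carries. RefSeq promoter windows (GRCm38.p6, 250 bases before to 50 after the start of the gene) were found for 23 of the 31 members. The ISRE letters, searched on both strands as GAAA, then any 2 bases, then GAAA, were present in 11 of these 23 (47.8%), against 3.99% of the 27025 genes with a window and 3.44% of all 32851 windows. The form shorter by 1 base, which ends in GAA and lies inside the longer one, was present in 12 members (52.2%), against 9.76% of all genes and 8.56% of all windows. Shown are Eif2ak2 and Irf7, which passed the diet test in opposite directions, and Isg15 and Ifit3, which hold several matches and whose diet groups did not overlap. Capitals mark the matches, which read TTTC, 2 bases, TTTC where they lie on the other strand.
Eif2ak2 (chr17:78882523-78882822, minus strand): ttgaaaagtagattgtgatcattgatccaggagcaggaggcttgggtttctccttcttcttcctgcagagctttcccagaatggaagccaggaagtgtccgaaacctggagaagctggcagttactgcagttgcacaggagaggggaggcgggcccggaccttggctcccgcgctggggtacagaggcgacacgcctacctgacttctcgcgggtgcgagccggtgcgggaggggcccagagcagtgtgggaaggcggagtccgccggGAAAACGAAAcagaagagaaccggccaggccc
Isg15 (chr4:156200769-156201068, minus strand): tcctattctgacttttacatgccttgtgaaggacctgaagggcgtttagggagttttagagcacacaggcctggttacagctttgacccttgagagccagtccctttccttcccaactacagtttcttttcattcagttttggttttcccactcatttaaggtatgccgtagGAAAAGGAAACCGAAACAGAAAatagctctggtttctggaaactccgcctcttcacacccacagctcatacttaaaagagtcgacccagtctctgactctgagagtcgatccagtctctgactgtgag
Ifit3 (chr19:34583279-34583578, plus strand): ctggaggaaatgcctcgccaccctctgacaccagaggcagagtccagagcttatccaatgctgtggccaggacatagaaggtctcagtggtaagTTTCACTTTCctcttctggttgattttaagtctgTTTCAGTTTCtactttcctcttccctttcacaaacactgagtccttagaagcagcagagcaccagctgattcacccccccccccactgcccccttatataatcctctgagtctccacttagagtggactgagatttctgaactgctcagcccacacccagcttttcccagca
Irf7 (chr7:141266375-141266674, minus strand): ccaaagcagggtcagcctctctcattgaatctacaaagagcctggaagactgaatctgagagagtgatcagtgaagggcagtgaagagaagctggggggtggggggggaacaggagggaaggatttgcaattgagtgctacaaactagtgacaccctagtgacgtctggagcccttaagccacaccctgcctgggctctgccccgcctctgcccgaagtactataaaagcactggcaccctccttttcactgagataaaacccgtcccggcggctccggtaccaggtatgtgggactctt
Counting from the start base as 0, Eif2ak2 holds 1 match at 18, just inside the transcribed part. Isg15 holds 3 overlapping matches at −78, −72 and −66, and Ifit3 holds matches at −156 and −122. These letters were not found in the Irf7 window.

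Across the module, levels under the high fat diet leaned low. In the quasi-likelihood test of edgeR, with p-values adjusted by Benjamini-Hochberg over 23983 loci, Mx1, Oas2 and Irf7 fell, Eif2ak2 rose, and the other 27 members did not pass the threshold of 0.05. The 3 lower members are 9.68% of the 31, beside 4.86% of all loci called lower, and the 1 higher member is 3.23%, beside 5.95% of all loci called higher. All 3 high fat libraries lay below all 3 normal diet libraries for 11 members (35.5%), beside 20.4% of all loci, and above them for 1 member, Eif2ak2 (3.23%), beside 18.8% of all loci. The groups overlapped for the other 19. The log2 fold change, high fat over normal, was below 0 for 24 of 31 (77.4%, beside 54.5% of all loci), with a median of −0.20, beside −0.05 over all loci. The members were chosen with results of these data known, so these shares are a description. In bulk islets fewer cells of a type and less RNA per cell cannot be told apart.

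**Figure D1:**
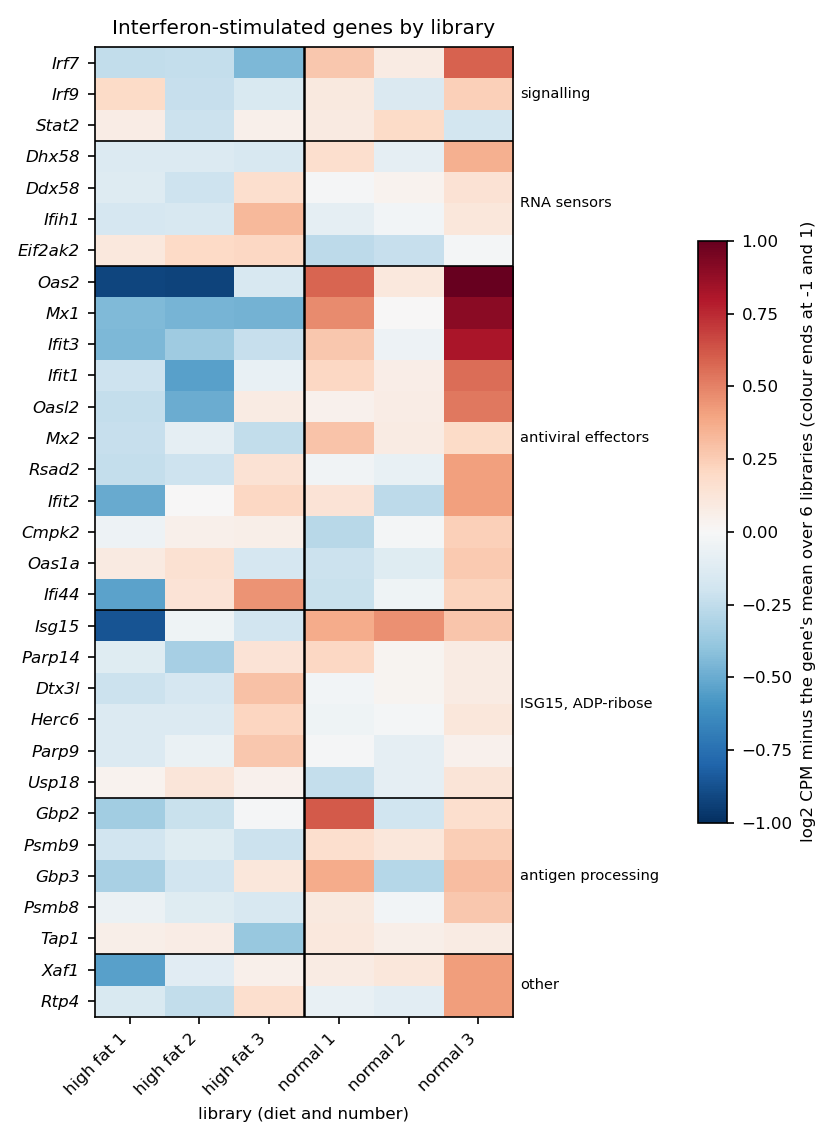
Each row is 1 of the 31 measured members, grouped by role, and each column is 1 library, high fat on the left and normal diet on the right. Colour gives the log2 CPM minus the gene's mean over the 6 libraries, on a scale that ends at −1 and 1. Normal diet library 3 is the reddest column, with the highest level of 17 members, and high fat library 3 is redder than the other high fat libraries in the rows of the sensors Ifih1 and Ddx58 and of the ADP-ribosylation genes.

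The signalling factors split by member. Irf7, the factor that amplifies interferon production and is itself induced by interferon (chromosome 7, 148449082 to 148452374 on the minus strand of mm9), had 3.60, 3.61 and 3.12 CPM in high fat libraries 1, 2 and 3, against 5.14, 4.50 and 6.41 CPM in normal diet libraries 1, 2 and 3. All 3 high fat values lay below the lowest normal diet value. The log2 fold change was −0.64 (SE 0.17, adjusted p = 0.045, edgeR), with means of 3.44 ± 0.284 CPM in high fat and 5.35 ± 0.970 CPM in normal diet islets (SD, n = 3 each). The subunits of the ISRE-binding complex showed no such gap. Stat2 read 19.0, 15.5 and 18.6 CPM in high fat islets and 19.1, 20.5 and 15.8 CPM in normal diet islets. Irf9 read 23.3, 17.4 and 18.4 CPM in high fat islets and 21.9, 18.5 and 24.1 CPM in normal diet islets. Both sets overlapped, with log2 fold changes of −0.06 (SE 0.13) and −0.12 (SE 0.15).

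Among the RNA sensors, 1 of 4 rose and none fell, beside 5.95% of all loci called higher and 4.86% called lower. Eif2ak2 encodes PKR, the kinase that halts translation when it meets double-stranded RNA, and its locus lies on chromosome 17 from 79249845 to 79281912 on the minus strand of mm9. It had 179, 191 and 192 CPM in high fat islets, against 140, 142 and 165 CPM in normal diet islets. The lowest high fat value lay above the highest normal diet value. Means were 188 ± 7.14 CPM in high fat and 149 ± 13.8 CPM in normal diet islets (SD, n = 3 each). The log2 fold change was 0.33 (SE 0.09, adjusted p = 0.046, edgeR). The cytoplasmic sensor MDA5, encoded by Ifih1, read 32.4, 32.5 and 45.5 CPM in high fat islets and 34.1, 35.6 and 39.2 CPM in normal diet islets, with high fat library 3 above all others (log2 fold change 0.02, SE 0.14). Ddx58, which encodes RIG-I, likewise overlapped between diets (log2 fold change −0.11, SE 0.12). Dhx58, which encodes their regulator LGP2, had 2.94, 2.95 and 2.89 CPM in high fat islets, against 3.63, 3.05 and 4.14 CPM in normal diet islets. These values did not overlap, but the difference did not pass the test (log2 fold change −0.30, SE 0.15, adjusted p = 0.21, edgeR).

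The direct antiviral effectors held the widest differences, with a median log2 fold change of −0.37. Of the 11, 2 were lower and none higher, beside 4.86% of all loci called lower and 5.95% called higher. Mx1, the gene of an interferon-induced GTPase (chromosome 16, 97668391 to 97684513, minus strand, mm9), had 0.971, 0.953 and 0.949 CPM in high fat islets, against 1.82, 1.32 and 2.47 CPM in normal diet islets. The high fat libraries were nearly equal while the normal diet libraries spread, and every normal diet value was higher. The log2 fold change was −0.97 (SE 0.23, adjusted p = 0.038, edgeR), on 92 to 352 reads per library. Oas2, a synthetase of the oligoadenylates that switch on RNase L (chromosome 5, 121180342 to 121199857, minus strand, mm9), had 0.291, 0.290 and 0.494 CPM in high fat islets, against 0.824, 0.593 and 1.39 CPM in normal diet islets. These values did not overlap either, and the log2 fold change of −1.38 was the lowest of the module (SE 0.36, adjusted p = 0.045, edgeR), on 28 to 198 reads per library.

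Ifit3 and its neighbour Ifit1, which encodes a protein that binds foreign RNA ends and blocks its translation, followed without passing the test. Ifit3 had 5.82, 6.22 and 6.78 CPM in high fat islets, against 9.59, 7.68 and 14.0 CPM in normal diet islets (log2 fold change −0.73, SE 0.21, adjusted p = 0.056, edgeR). Ifit1 had 9.35, 7.42 and 10.3 CPM in high fat islets, against 12.5, 11.4 and 15.9 CPM in normal diet islets (log2 fold change −0.55, SE 0.17, adjusted p = 0.067, edgeR). Neither gene's groups overlapped, and normal diet library 3 was highest for both. Their neighbour Ifit2, 6238 bases from Ifit3 in the same cluster, did overlap, at 3.85, 5.48 and 6.31 CPM in high fat islets and 5.99, 4.56 and 7.26 CPM in normal diet islets. Mx2, which lies 71335 bases from Mx1 on the other strand, had 3.23, 3.56 and 3.19 CPM in high fat islets, against 4.61, 4.002 and 4.32 CPM in normal diet islets. Its groups did not overlap, and its log2 fold change of −0.37 did not pass the test (SE 0.14, adjusted p = 0.100, edgeR).

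**Figure D2:**
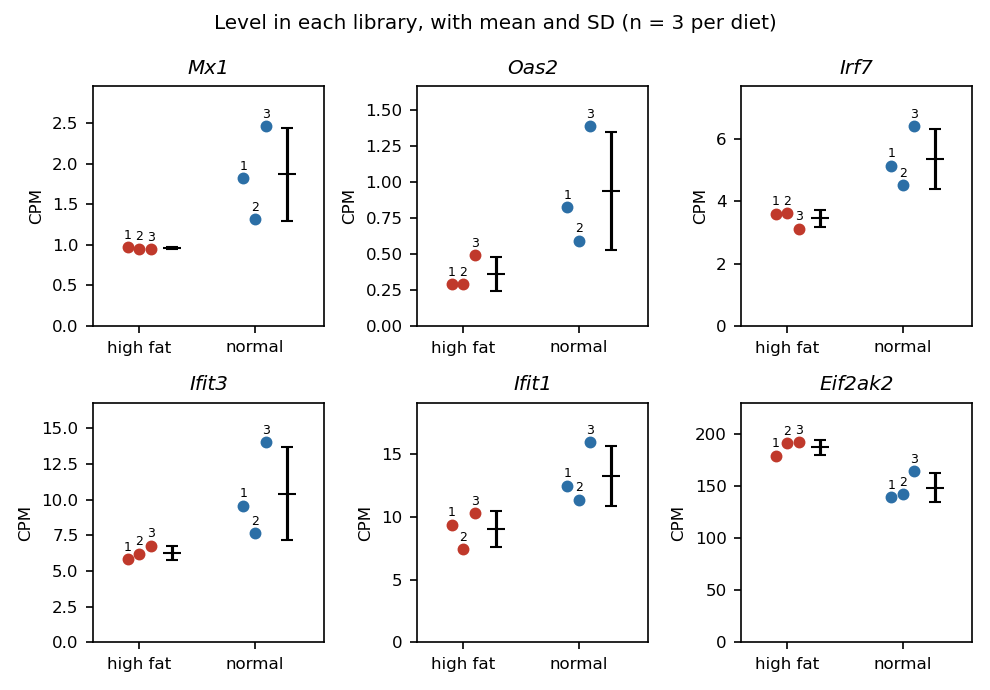
Points are CPM in each library, numbered 1 to 3 by replicate, for 6 members, with high fat left of normal diet and the mean and SD (n = 3) beside the points. For Mx1, Oas2, Irf7, Ifit3 and Ifit1 every high fat point is below every normal diet point, and for Eif2ak2 every high fat point is above.

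Cmpk2 and Rsad2, the effectors with the highest CPM, overlapped between diets. Rsad2, which encodes viperin, an enzyme that makes a chain-terminating nucleotide, had 29.0, 29.6 and 38.0 CPM in high fat islets and 33.5, 32.6 and 45.5 CPM in normal diet islets (log2 fold change −0.21, SE 0.16). Cmpk2, a mitochondrial nucleotide kinase whose locus lies 12762 bases away in the opposite orientation, had 100, 107 and 108 CPM in high fat islets and 85.5, 102 and 122 CPM in normal diet islets (log2 fold change 0.03, SE 0.12). In both genes normal diet library 3 was highest, as it was for 9 of the 11 effectors. Oasl2, Oas1a and Ifi44 also overlapped, with log2 fold changes of −0.43, 0.04 and 0.08.

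The ISG15 system and the ADP-ribosylation genes gave no call in either direction among 6 members by edgeR or DESeq2 with adjusted p (1 of the 6, Isg15, had an unadjusted p under 0.05 in edgeR, beside 16.4% of all loci lower at that level). Isg15, the small protein that is attached to other proteins after interferon, had 0.194, 0.342 and 0.308 CPM in high fat islets, against 0.456, 0.483 and 0.428 CPM in normal diet islets. These values did not overlap, but they rest on 22 to 61 reads per library (log2 fold change −0.70, SE 0.26, adjusted p = 0.109, edgeR). Usp18, the protease that removes ISG15 and damps the interferon receptor, had 41.5, 43.9 and 41.7 CPM in high fat islets and 34.3, 38.0 and 44.4 CPM in normal diet islets, which overlapped (log2 fold change 0.12, SE 0.11). Parp14, an ADP-ribosyltransferase, had 32.6, 28.2 and 39.0 CPM in high fat islets and 40.9, 36.2 and 37.5 CPM in normal diet islets (log2 fold change −0.20, SE 0.13). Parp9 and its ubiquitin ligase partner Dtx3l overlap by 558 bases on opposite strands, so that reads in that stretch could not be assigned if strand was not used in counting. Parp9 and Dtx3l had log2 fold changes of 0.05 and −0.04, Herc6, the ligase that attaches ISG15 in mice, had −0.02, and for Parp9, Dtx3l and Herc6 high fat library 3 was the highest of the 6.

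The GTPases and antigen processing genes all had log2 fold changes below 0, from −0.42 to −0.15, with none of 5 past the threshold by edgeR. By DESeq2 1 of them, Psmb9, was lower past the adjusted threshold, beside 8.49% of all loci. In edgeR 1 was lower at an unadjusted p under 0.05, beside 16.4% of all loci lower at that level. Psmb9, a catalytic subunit of the immunoproteasome, had 5.44, 5.73 and 5.35 CPM in high fat islets, against 6.99, 6.73 and 7.38 CPM in normal diet islets (log2 fold change −0.35, SE 0.12, adjusted p = 0.085, edgeR). Psmb8, a second catalytic subunit, had 13.9, 13.3 and 12.9 CPM in high fat islets, against 15.5, 14.2 and 17.4 CPM in normal diet islets (log2 fold change −0.23, SE 0.11). In both genes the diets did not overlap. Tap1, a chain of the peptide transporter into the endoplasmic reticulum, lies 225 bases from Psmb9 in the opposite orientation and had 18.0, 18.3 and 13.3 CPM in high fat islets and 18.7, 18.1 and 18.4 CPM in normal diet islets. For Tap1 high fat library 3 was low and the other 5 libraries lay close together. Gbp2, a guanylate-binding protein that attacks the membranes around pathogens, had 5.83, 6.38 and 7.35 CPM in high fat islets and 11.3, 6.48 and 8.35 CPM in normal diet islets, with normal diet library 1 highest, as also for Gbp3.

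Of the other members, Xaf1, a proapoptotic partner of XIAP, had 1.64, 2.22 and 2.48 CPM in high fat islets, against 2.53, 2.59 and 3.19 CPM in normal diet islets. These did not overlap, by a narrow margin (log2 fold change −0.39, SE 0.19, adjusted p = 0.196, edgeR). Rtp4, a receptor-transporting protein, had 3.17, 2.96 and 3.95 CPM in high fat islets and 3.35, 3.26 and 4.70 CPM in normal diet islets, which overlapped (log2 fold change −0.17, SE 0.19).

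**Figure D3:**
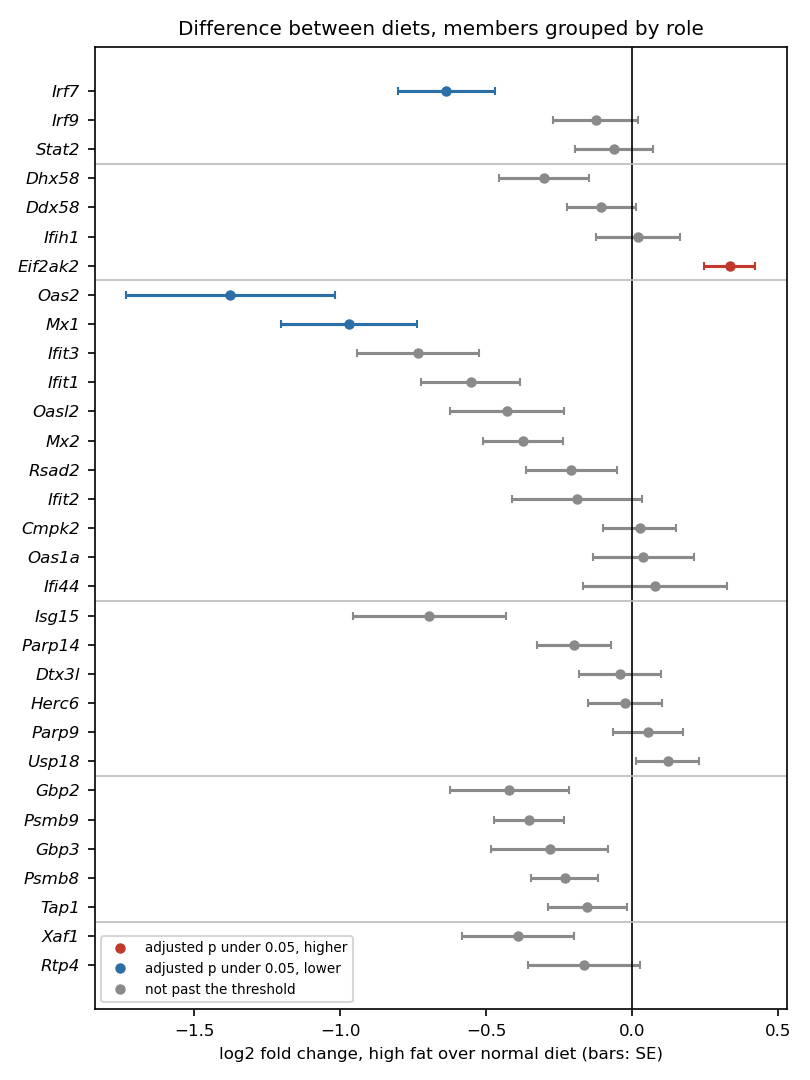
Points are log2 fold changes, high fat over normal diet, of the 31 members from edgeR, grouped by role, with bars for the SE. Mx1, Oas2 and Irf7 (blue) passed the threshold below 0, Eif2ak2 (red) passed above 0, and most other points lie left of 0.

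Member levels were uneven across the libraries of each diet. Normal diet library 3 held the highest level of 17 of the 31 members, and of 9 of the 11 that did not overlap with all high fat libraries below. High fat library 3 was highest for 7 members and high fat libraries 1 and 2 for none. The lowest level fell in high fat library 1 for 12 members, in library 2 for 8 and in library 3 for 7, in normal diet library 1 for 4, and in normal diet libraries 2 and 3 for none. Without normal diet library 3 the log2 fold change was −0.74 for Mx1, −0.998 for Oas2 and −0.51 for Irf7, with edgeR adjusted p-values of 0.104, 0.121 and 0.129. Leaving out high fat library 1, high fat library 2, or normal diet library 1, 2 or 3 ended all 4 member calls, in fits where 0% to 0.136% of all loci were called lower and 0% to 0.377% higher. Without high fat library 3 the edgeR test called 7 members lower (Ifit1, Ifit3, Irf7, Mx1, Oas2, Oasl2 and Parp14) and Eif2ak2 higher, with 7.87% of all loci lower and 12.4% higher. DESeq2 called 6 members lower (Ifit1, Ifit3, Irf7, Mx1, Oas2 and Psmb9) and Eif2ak2 higher, with 8.49% of all loci lower and 10.5% higher. By limma on the deposited scaled values Mx1 and Oas2 were lower and no member higher, so the calls of Irf7 (limma adjusted p = 0.132) and Eif2ak2 (limma adjusted p = 0.27) were lost. Eif2ak2 also missed the threshold by edgeR with no filter on low counts (adjusted p = 0.056).

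Levels differed widely within the module. Per kilobase of exon, averaged over the 6 libraries, Cmpk2 (32.7 CPM per kb), Eif2ak2 (26.4) and Usp18 (22.9) were the most abundant and Oas2 (0.145), Isg15 (0.231) and Mx1 (0.406) the least. The members past the test below 0 are among the scarcer ones. Split at a mean of 10 CPM, a value chosen after the data were seen, the 16 scarcer members had a median log2 fold change of −0.38 and included all 3 lower calls. The 15 more abundant members had a median of −0.06 and the 1 higher call. All loci split the same way, with medians of −0.27 for the 14606 scarcer loci, of which 887 were lower and 201 higher, and 0.14 for the 9377 more abundant loci, of which 278 were lower and 1225 higher. The part of level in the members' differences was not tested.

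**Figure D4:**
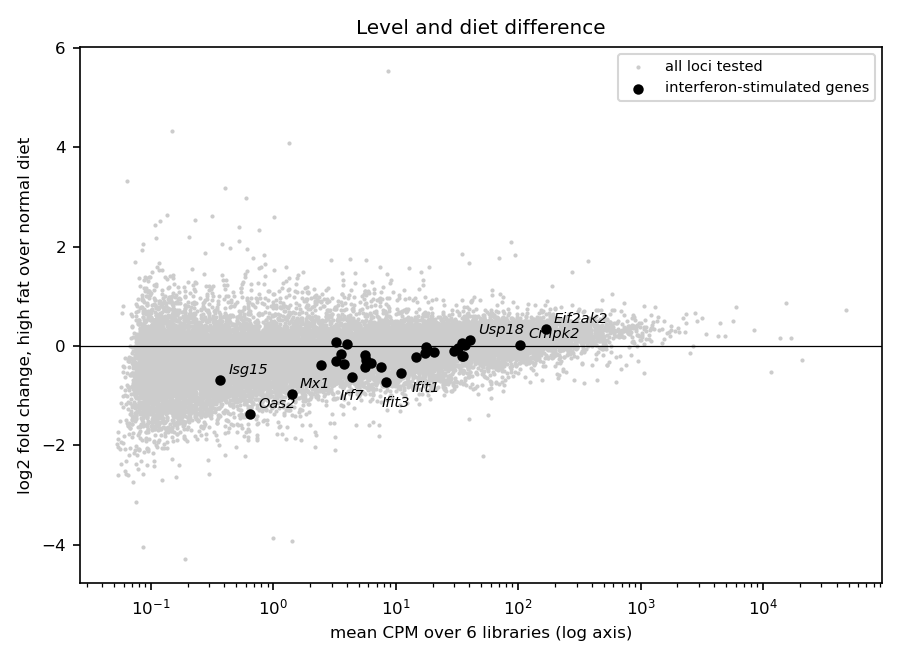
The x axis is the mean CPM over the 6 libraries (log axis), the y axis the log2 fold change, high fat over normal diet, grey points are all 23983 loci tested and black points the 31 members. Both the grey cloud and the black points drift upward to the right, from Oas2 and Mx1 to Eif2ak2.

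Among the 23 members with a promoter window, those with and without the ISRE letters had close medians. The 11 members with a match had a median log2 fold change of −0.21, with 3 below and 1 above normal diet in all libraries, and the 12 without one had a median of −0.17, with 4 below. No window was found for Mx1, Mx2, Oas2, Usp18, Rtp4, Parp9, Parp14 and Dhx58, so these are in neither group. Oas2 and Mx1, at −1.38 and −0.97, had the lowest log2 fold changes of the module and were both called lower. Neighbouring members differed in whether their diets overlapped, since Ifit2 and Tap1 did while their neighbours Ifit3, Psmb9 and Psmb8 did not; these differences between genes were not tested.

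The other genes of the interferon pathway had a median near 0. Of 93 other pathway genes listed, 78 had a usable locus and 74 were tested, while 6 had no linked locus, 4 were merged with an unrelated gene, 4 lay in the locus of an earlier gene and 1 was over the limit on shared bases; 2 fell (2.70%, beside 4.86% of all loci) and 0 rose by edgeR. At an unadjusted p under 0.05, 7 were lower (9.46%, beside 16.4% of all loci) and 6 higher (8.11%, beside 15.4%), and DESeq2 called 2 higher, Ifnar2 and Ifngr2, beside 10.5% of all loci. Their median log2 fold change was 0.005, and its difference from the members' median was not tested. The receptors, which were not members, leaned the other way. Ifnar1 had 59.8, 63.8 and 61.4 CPM in high fat islets, against 55.4, 55.0 and 57.1 CPM in normal diet islets, and Ifnar2, the other chain of the type I receptor, had 28.8, 31.3 and 25.4 CPM in high fat islets, against 21.3, 24.4 and 22.6 CPM in normal diet islets. All high fat values lay above all normal diet values for 5 of the 6 receptor genes (background 18.8%), of which Ifnar1, Ifnar2, Il10rb and Ifngr2 all lie on chromosome 16, though none passed the edgeR test, with adjusted p = 0.23 for Ifnar1 and 0.086 for Ifnar2. Their log2 fold changes were 0.14 (SE 0.08) and 0.32 (SE 0.11). The 5 receptor genes averaged from 19.1 CPM for Ifngr2 to 58.8 CPM for Ifnar1, and all loci at or over 10 CPM had a median of 0.14. Ifnlr1, which averaged 1.53 CPM, overlapped between diets, with a log2 fold change of −0.46. The part of level in the receptors' differences was not tested.

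The 2 pathway genes that fell were Irf3 and Helz2. Irf3, the factor that starts interferon transcription after RNA sensing, had 5.51, 4.49 and 5.398 CPM in high fat islets, against 8.98, 7.28 and 7.34 CPM in normal diet islets (log2 fold change −0.61, adjusted p = 0.037, edgeR). The Irf3 locus holds 18017 exonic bases, 59.5% of them under a further locus, at 0.361 CPM per kb. Helz2, a helicase that is itself interferon-induced, had 20.4, 21.3 and 16.5 CPM in high fat islets, against 29.7, 25.1 and 25.9 CPM in normal diet islets (log2 fold change −0.47, adjusted p = 0.048, edgeR). Neither overlapped between diets. Both calls were lost when any 1 library other than high fat library 3 was left out. Of the 9 ligands listed, the 4 with a usable locus were nearly silent: over all 6 libraries Ifng had 7 reads, Ifnk 14, and Ifnl2 and Ifnl3 0, where a count of 0 allows up to 3. Ifnb1, Ifna1, Ifna2, Ifna4 and Ifne had no usable locus, so their levels were not measured here. None of the ligands could be tested.

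Several cell type markers moved with the diet. The macrophage and myeloid markers, for cells known as strong interferon responders, summed to between 201 and 250 CPM in high fat islets, against 268 to 290 CPM in normal diet islets. Their log2 fold changes were below 0 for 10 of the 10 markers used (12 listed), beside 54.5% of all loci. Of these, 1, Csf1r, fell by edgeR (16.6, 15.2 and 19.6 CPM in high fat islets, against 27.1, 21.999 and 23.4 CPM in normal diet islets). Over all loci, 4.86% were lower and 5.95% higher by edgeR. The Csf1r locus holds 48939 exonic bases, 18.8% of them under another locus, at 0.422 CPM per kb. The most abundant, C1qa and Cd74, averaged 105 and 82.9 CPM and make up most of the sum. C1qa read 108, 116 and 56.1 CPM in high fat libraries 1, 2 and 3, against 116, 114 and 119 CPM in normal diet islets. Ptprc, Aif1, Adgre1 and Itgam overlapped between diets, with log2 fold changes of −0.02, −0.05, −0.08 and −0.11. For Csf1r, Cd74 and Lyz2 all high fat values lay below all normal diet values. No marker of this list was at 0 in all libraries, though C1qb averaged 0.117 CPM at a locus with 79.5% of its bases under another. Alpha cell markers, led by Gcg, summed to 17357 to 21018 CPM in high fat islets, against 22136 to 24449 CPM in normal diet islets, with 2 of 4 lower by edgeR. Beta cell markers, led by Iapp, summed to 80229 to 100201 CPM in high fat islets, against 55556 to 65421 CPM in normal diet islets, with 2 of 5 used (9 listed) higher. Of the Schwann cell markers, 3 of 5 were lower by edgeR. Stromal markers, led by Rgs5, summed to 386 to 482 CPM in high fat islets, against 302 to 339 CPM in normal diet islets, with 2 of 6, Rgs5 and Acta2, higher. The sum is mostly Rgs5 (307 CPM on average), and the other 4 stromal markers had log2 fold changes below 0, from −1.37 for Col1a1 to −0.01 for Pdgfrb, with none past the edgeR threshold. The part of these cell types in the members' differences was not tested.

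The sums of the remaining lists overlapped between diets, with no marker past the edgeR threshold. Acinar markers, led by Pnlip, summed to 3204 to 6886 CPM in high fat and 2244 to 4337 CPM in normal diet islets. Of the 9 acinar markers tested (10 listed), 0 had a log2 fold change below 0, beside 54.5% of all loci. Their log2 fold changes ran from 0.04 to 0.78, with a median of 0.59. Endothelial markers, led by Kdr, summed to 451 to 551 CPM in high fat and 446 to 516 CPM in normal diet islets. Plasmacytoid dendritic markers, led by Tcf4, summed to 66.4 to 79.4 CPM in high fat and 64.5 to 71.3 CPM in normal diet islets. Tcf4 makes up most of that sum, and the other 3, Siglech, Ccr9 and Bst2, had log2 fold changes of −0.65, −0.58 and −0.03; Bst2 is also in the pathway list. Lymphocyte markers were scarce, at 1.07 to 1.82 CPM in high fat and 1.43 to 1.74 CPM in normal diet islets, led by Cd79a.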

How the data were processed

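Per the labels' protocols, total RNA of mouse islets was depleted of ribosomal RNA and made into libraries with a stranded kit without poly(A) selection. The submitters' processing notes name HTSeq 0.5.4p3, edgeR, Cufflinks 2.1.1 and TopHat2 2.0.8, with genome build mm9; their order, their settings and any use of strand in counting are not given in the sources used here. What the authors deposited are unnormalised counts in 39470 loci, assembled transcripts with mm9 coordinates, and a table of scaled values. In that table each signal, per the deposited values, is the raw count times 1 constant per library, so it returns whole reads equal to the counts.

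The 98161 deposited transcripts carry no symbols, so loci were linked to GENCODE M21 genes by exon and intron lengths measured in each build (20073 loci linked); no coordinates were converted. A link is an inference from structure. Counts were fitted in R 4.3.3 with edgeR 4.0.16 (filterByExpr, TMM, quasi-likelihood, two-sided, Benjamini-Hochberg over 23983 loci, diet as the only term), after a check on simulated data. DESeq2 1.42.0, limma 3.58.1 on log2(scaled value + 1), DESeq2 size factors, no filter, a replicate block, a stricter limit on shared bases and leaving out each library were the alternatives. Intervals are given as SE and cover only the spread of 3 libraries per diet.

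The members and lists were chosen with earlier results of these data known. Named are the members past the threshold, the most abundant and most changed members of each role, Ifnar1, Ifnar2, the ligands, pathway genes past the threshold and the leading gene of each marker list; some genes that this rule takes in are not reported here. Isg15, Ifit1, Ifit2, Mx2, Oas1a, Oasl2, Ifi44, Ddx58, Gbp3, Parp9, Dtx3l, Herc6, Csf1r, C1qb, Cd74, Lyz2, Ptprc, Aif1, Adgre1, Itgam, Ifngr2, Il10rb, Ifnlr1, Acta2, Col1a1, Pdgfrb, Siglech, Ccr9 and Bst2 were named after their values were seen.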

Additional observations from a re-analysis of the deposited data

How the results depend on the processing

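The edgeR counts over all loci were 1426 higher and 1165 lower; DESeq2 gave 2276 and 1838, limma on the scaled values gave 399 and 945, turning the balance to lower, and leaving out 1 library gave 0 to 3075 higher and 0 to 1960 lower. For the members, 1 was higher and 3 lower in edgeR. No filter and limma each gave 0 higher, limma gave 2 lower (Irf7 was lost), DESeq2 gave 6 lower, a limit of 10% on shared bases, which drops Oas2 and Herc6, gave 2 lower, and leaving out 1 library gave 0 to 1 higher and 0 to 7 lower. For the other pathway genes, 0 higher and 2 lower became 2 higher under DESeq2, 1 lower under limma (Cxcl10, with Irf3 and Helz2 lost), and 0 to 4 in each direction without 1 library. The cause of these shifts was not tested.

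The diets share replicate numbers, but the correlation of deviations between same-numbered libraries was −0.07, 0.07 and −0.01, and not every library correlated best with its own number, so the numbers were not taken as pairs. With the replicate block, 54 loci were higher and 20 lower, with 0 members and 0 pathway genes called; the median of the members was −0.20.

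That median stayed below 0 in all alternatives run, from −0.32 without normal diet library 2 to −0.17 for limma. Across leave-one-out fits the log2 fold change of Mx1 ranged from −1.19 to −0.74, Oas2 from −1.69 to −0.998, Irf7 from −0.77 to −0.51 and Eif2ak2 from 0.27 to 0.39. Signs near 0 turned when 1 library was left out: Stat2 ranged from −0.18 to 0.032, Ifih1 from −0.16 to 0.11, Rtp4 from −0.29 to 0.0021 and Cmpk2 from −0.11 to 0.14. Over 19 named members, 170 of 209 values under alternatives kept their direction and side of the threshold, 27 lost a call, 5 gained one and 7 changed sign. All 27 lost calls were those of Mx1, Oas2, Irf7 and Eif2ak2, the only members with a call to lose. For the other named members, keeping the side of the threshold meant staying without a call.

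The 3 libraries per diet, low read counts of Isg15, Oas2 and Mx1, loci linked by structure, and the reading of HDR as high fat diet limit all of these values.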

Other observations

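Cxcl10, an interferon-induced chemokine of the pathway list chosen after its values were seen, had 0.203, 0.373 and 0.0694 CPM in high fat islets, against 0.800, 0.319 and 1.77 CPM in normal diet islets. Its log2 fold change was −2.22 (SE 0.67) and did not pass the edgeR test (adjusted p = 0.065), though it was called lower by edgeR with no filter and by limma on the scaled values. Its highest value was again in normal diet library 3, on 456 reads over the 6 libraries. Socs1, a feedback inhibitor of interferon signalling also chosen after its values were seen, had 0.450, 0.487 and 0.231 CPM in high fat islets, against 0.544, 0.748 and 0.610 CPM in normal diet islets. These did not overlap, and the difference did not pass the test (log2 fold change −0.71, SE 0.30, adjusted p = 0.142, edgeR).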
